A study of Gallus gallus with 6 samples.

Results

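The genes described here were abundant in small yellow follicles of the hen and lower in follicle T4 than in follicle T1 of the same hen by a factor of 4 or more, with no 2-fold fall in the follicle pairs of the other hens. They are 124 of the 17992 genes in the deposited table, and 124 of the 5027 genes with a mean of 20 FPKM or more (the fragments of a gene relative to its transcript length and to the size of the library). A gene was a member when its mean over the 6 follicles reached 20 FPKM, when the log2 ratio of T4 over T1 was -2 or lower, and when the log2 ratios of T5 over T2 and of T6 over T3 were above -1. Ratios were formed after 0.5 was added to each FPKM value, so that low genes appear to differ less than they do. Genes on the sequence of chromosome Z were left out, as were 13 genes named in the rule. All 3 ratios and the mean level chose the members, so they are given as a description, and no test was run on them.

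In the study, 6 small yellow follicles, each 6 to 8 mm across, were sequenced as separate libraries to compare follicles that differ in the level of *FSHR*, the receptor of follicle-stimulating hormone. All of them came from wild-type Jining Bairi hens, a Chinese breed, aged 30 weeks. By the paper, T1 and T4 came from 1 hen (hen 1), T2 and T5 from a second (hen 2) and T3 and T6 from the remaining bird (hen 3). No treatment was given, and each ratio within a hen sets 1 follicle against 1, so that it has no replicate check. The submitters' labels call T1, T2 and T3 the follicles with more *FSHR* and T4, T5 and T6 those with less. The deposited values go the other way: for *FSHR*, the follicles T1, T2 and T3 had 11.9, 13.1 and 13.9 FPKM, while T4, T5 and T6 had 46.4, 18.9 and 27.8 FPKM. The follicles are therefore called by their numbers. About 12554918 to 13933216 fragments on genes stood behind each follicle. T4 stood apart from the other follicles over the 5027 abundant genes, with Spearman correlations of 0.71 to 0.84 against it and of 0.87 to 0.95 among the other 5. The members were selected on the low values of T4, so no result on them can be given without that library.

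The growing follicle of a hen has an inner layer of granulosa cells, which has no vessels of its own, and outside its basement membrane a theca. The theca is a connective tissue sheath in which fibroblasts lay down fibrillar collagens, proteoglycans and microfibrils, and through which blood vessels, nerves and smooth muscle run. RNA of a whole follicle mixes all of these cells, so that fewer cells of a type and less RNA per cell cannot be told apart.

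Among the 5027 abundant genes, 137, or 2.73%, were at or below a log2 ratio of -2 in T4 over T1. The opposite side was smaller, with 53 genes (1.05%) at or above a log2 ratio of 2. A ratio of -2 or lower was reached by 6 genes (0.119%) in T5 over T2 and by 18 genes (0.358%) in T6 over T3. Of the 137 genes, 7 were also lower by 2-fold or more in T5 or T6, 2 lay on the sequence of chromosome Z, and 4 were named in the rule (*COL3A1*, *COL6A1*, *COL6A3* and *DES*). This left the 124 members. Nearest inside the limit were gene11755, with 141 FPKM (T1) and 34.8 FPKM (T4), and gene6602, with 39.8 and 9.57 FPKM. Both log2 ratios equalled -2 at the second decimal. Nearest outside were gene17617, at 26.2 and 6.23 FPKM, and gene15786, at 13.7 and 3.07 FPKM, both at a log2 ratio of -1.99.

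The members made up a similar part of the fragments in 5 follicles and a smaller part in T4. They took 5.29% of the fragments in T1, 4.33% in T2, 5.91% in T3, 4.69% in T5 and 5.70% in T6, and 1.04% in T4. Their part of the summed FPKM varied more among the 5 follicles. It was 5.60% in T1, 5.04% in T2, 8.98% in T3, 6.72% in T5 and 12.2% in T6, and 1.30% in T4. The median level of a member was 16.01 FPKM in T4, while it was 78.7, 67.7, 86.5, 75.8 and 88.3 FPKM in the other follicles, taken in the order T1, T2, T3, T5 and T6. The median log2 ratio of T4 over T1 was -2.20, against 0.05 over all 5027 abundant genes. In T5 over T2 it was 0.21 against -0.03, and in T6 over T3 it was 0.00 against 0.15. T5 lay above T2 in 104 of 124 members, or 83.9%, where 44.9% of the abundant genes did so. T6 lay above T3 in 62 members (50%), where 66.1% of the abundant genes did so. The limits of the rule bear on each of these values.

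**Figure D1:**
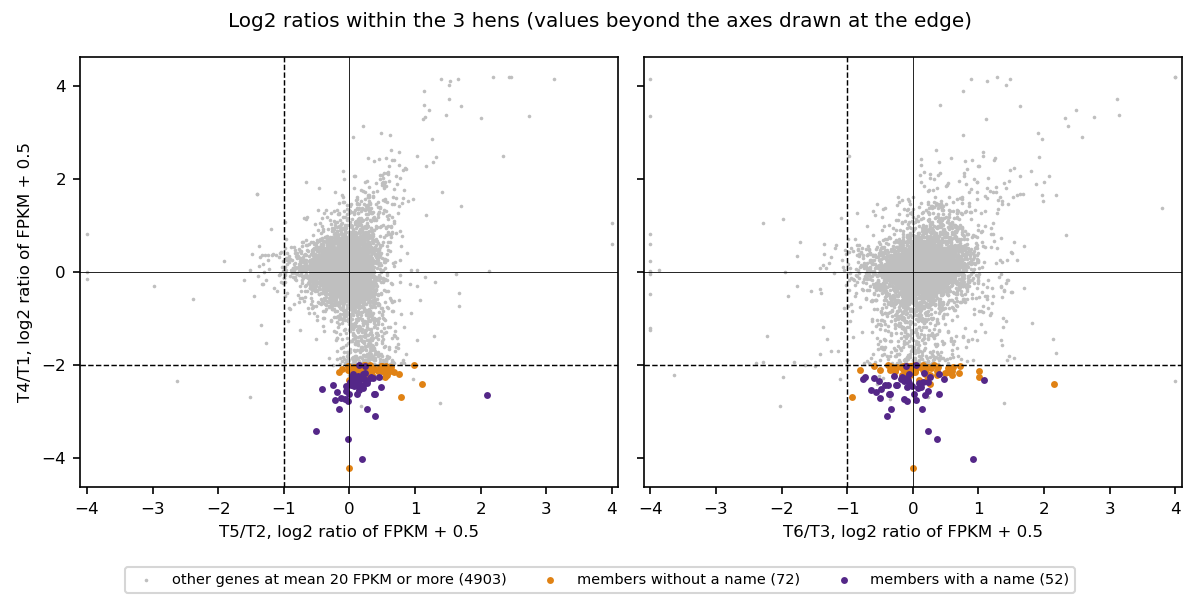
Log2 ratio of T4 over T1 (vertical axis) against T5 over T2 (left panel) and T6 over T3 (right panel), of FPKM with 0.5 added, for members with a name, members without a name and the other abundant genes. Dashed lines mark the limits of the rule; the members fill the area below -2, and in the other hens most of them lie near 0.

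In most members T4 lay below the other follicles, while T1 lay within the range of T2, T3, T5 and T6. The rule favours low values of T4, so the shares for T4 follow in part from it. The abundant genes set beside them were not chosen in this way. T4 was the lowest of the 6 follicles in 120 of 124 members (96.8%), against 23.9% of the abundant genes. It lay at least 2-fold below every other follicle in 112 members, against 6.66% of the abundant genes, and at least 4-fold below every other follicle in 49, against 1.07%. Against the median of the other 5 follicles, the median log2 difference of T4 was -2.27, and it was 0.13 over the abundant genes. T1 lay within the range of T2, T3, T5 and T6 in 78 members (62.9%), as it did in 67.8% of the abundant genes. T1 was above all 4 of them in 19 members (15.3% against 20.4%) and below all 4 in 27 (21.8% against 11.8%). The highest value of a member was in T3 for 42 genes, in T6 for 35, in T5 for 25, in T1 for 19 and in T2 for 3. The rule bars T4 from being the highest, so these counts fall on the other 5 follicles. T1 was the highest of all 6 follicles in 15.3% of the members and in 9.63% of the abundant genes. The shares of the abundant genes for the other follicles were not counted, so the counts for T2, T3, T5 and T6 are no trait of the members. Measured against follicles of the other hens, T4 was lower by 4-fold or more than T6 in 109 members (87.9%, against 5.37% of the abundant genes), than T3 in 104 (83.9% against 5.15%), than T5 in 76 (61.3% against 3.62%) and than T2 in 59 (47.6% against 2.39%).

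**Figure D2:**
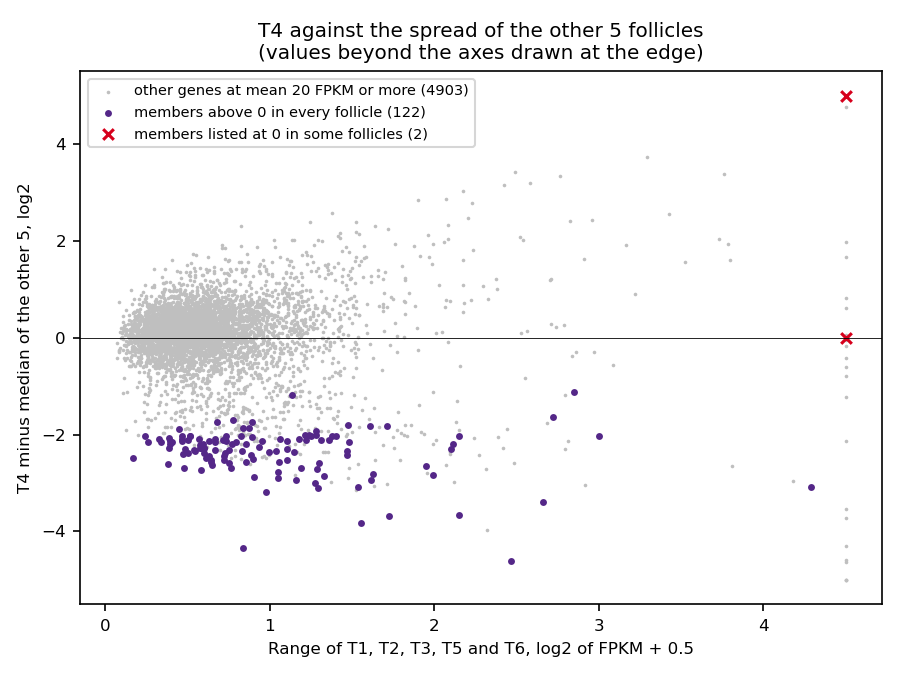
T4 minus the median of the other 5 follicles (vertical axis, log2) against the range of these 5 follicles (horizontal axis, log2 of FPKM + 0.5), for members and for the other abundant genes. Most members lie near -2 while their other 5 follicles span less than 1.5, and both members marked with a cross are listed at 0 in some follicles.

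The table gives numbers and no names. A name or a description was found for 52 members, 19 from a KEGG entry and 33 from a description alone, and 72 stayed without a name. Names come from only a part of the genes that the study had called lower in T4, the 261 with the largest falls. The named members thus have the lower ratios: their median log2 ratio of T4 over T1 was -2.42, against -2.11 for those without a name. The share of a gene group among the named members therefore does not carry over to all members. Groups by role were made after the members were known.

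Collagens were the most abundant named members. Collagen fibres of connective tissue consist mainly of type I collagen, built from the chains of *COL1A1* and *COL1A2*. *COL1A2* (gene3198, plus strand of chromosome 2, 23702024 to 23740034) had 2804, 2104, 2758, 2109 and 3071 FPKM in T1, T2, T3, T5 and T6, but 543 FPKM in T4. T4 was at 19.4% of T1 and below every other follicle, while the other 5 differed by less than 1.5-fold. The log2 ratio was -2.37 within hen 1, 0.00 within hen 2 and 0.15 within hen 3, and the 31110 fragments in T4 gave a counting interval (95%, exact binomial) of -2.39 to -2.35 for the ratio of normalized counts in hen 1. *COL1A2* alone held 22.1% of all fragments of the members.

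The other chain of type I collagen appeared only as short models on unplaced sequences, which can share reads with each other, so that the level of each is uncertain. The COL1A1-like model a (gene20348, 595 bases) was at 4060, 3014, 4518, 689, 2909 and 5275 FPKM from T1 to T6. Model b (gene21015, 411 bases) was at 4285, 2454, 4118, 554, 2196 and 4560 FPKM, model c (gene19925, 501 bases) at 617, 351, 420, 57.5, 245 and 493 FPKM, and model d (Chicken_newGene_4564, 566 bases) at 2178, 1321, 2710, 319, 1308 and 2546 FPKM. All 4 were lowest in T4, and among the other follicles all 4 were lower in hen 2 (T2 and T5) than in T1, T3 and T6. Their log2 ratios of T4 over T1 ran from -3.41 (model c) to -2.56 (model a). Model c had 260 fragments in T4, with a counting interval of -3.61 to -3.23, and that of model a was -2.60 to -2.50, so that the models differed by more than counting error.

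The remaining collagens had similar ratios. *COL6A2* (gene9787, plus strand of chromosome 7, 6778245 to 6806337), a chain of the beaded filaments of collagen VI, was at 643, 458, 759, 123, 460 and 727 FPKM from T1 to T6. *COL5A1* (gene14689, plus strand of chromosome 17, 7439860 to 7563268), of the collagen that starts type I fibrils, was at 307, 191, 247, 55.9, 185 and 265 FPKM. *COL12A1* (gene5938, plus strand of chromosome 3, 80211572 to 80312382), a collagen on the surface of fibrils, was at 263, 200, 224, 50.7, 213 and 263 FPKM. T4 was lowest for each, hen 2 came next, and T1, T3 and T6 were highest. The log2 ratios of T4 over T1 were -2.38, -2.45 and -2.36, and those of the other hens were between -0.06 and 0.23. Over the 8 collagen members the summed level was 2392 FPKM in T4 and 9624 to 17200 FPKM in the other follicles. Each COL1A1-like model counts as a member here, so that 8 is not a count of separate genes.

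Proteins that bind collagen or build microfibrils and basement membranes formed a named group of 13 members, all lowest in T4. Several of these are models of *AEBP1*, so that 13 is not a count of separate genes. Decorin, *DCN* (gene518, minus strand of chromosome 1, 43892825 to 43966838), and lumican, *LUM* (gene517, minus strand of chromosome 1, 43861135 to 43873153), are small leucine-rich proteoglycans that coat collagen fibrils, and they are neighbours, 19672 bases apart. *DCN* was at 237, 148, 261, 41.5, 171 and 276 FPKM from T1 to T6. *LUM* was at 20.7, 19.8, 43.4, 3.04, 17.3 and 29.3 FPKM. The log2 ratios in hen 1 were -2.50 for *DCN* and -2.58 for *LUM*, and in hen 3 they were 0.08 and -0.56. For *DCN* the ratio of normalized counts was smaller in size, at -2.32.

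*AEBP1*, which codes in mammals for a collagen-binding secreted protein, appeared as 3 models on unplaced sequences that may share reads. Model a (gene21332) was at 264, 235, 329, 53.0, 258 and 301 FPKM from T1 to T6, model b (gene20166) at 181, 132, 245, 33.5, 145 and 208 FPKM, and model c (Chicken_newGene_4759) at 279, 201, 339, 55.8, 208 and 323 FPKM. Models b and c lie on 1 sequence, 1236 bases apart, on the same strand. The log2 ratios of T4 over T1 were between -2.42 and -2.31, so the 3 models gave nearly the same ratio.

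The microfibril protein gene *MFAP2* (gene16211, minus strand of chromosome 21, 4408010 to 4410439) was at 140, 116, 86.9, 34.4, 128 and 89.6 FPKM from T1 to T6. Unlike the collagens it was higher in hen 2 than in hen 3, and T4 was lowest. Its log2 ratio of T4 over T1 was -2.005 by FPKM and -2.29 by normalized counts. *FBLN1* (gene1094, plus strand of chromosome 1, 70623541 to 70706021), for a fibulin of elastic fibres and basement membranes, was at 80.8, 56.3, 85.9, 16.4, 72.6 and 81.0 FPKM. *LAMB1* (gene209, minus strand of chromosome 1, 14681207 to 14722798), the beta chain of laminins of basement membranes, was at 118, 73.4, 126, 25.4, 76.6 and 121 FPKM. T4 was the lowest follicle for both genes, T2 was the next, and the log2 ratios in hen 1 were -2.27 and -2.19. *CCDC80* (gene1367, plus strand of chromosome 1, 82939775 to 82963719), for a secreted protein that binds to matrix, varied more among the other follicles, at 29.1, 13.3, 58.8, 5.50, 15.7 and 34.6 FPKM.

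The other members of this group were lowest in T4 as well. The guidance cue *NTN1* (gene14831), a secreted laminin relative, was at 49.4, 74.3, 108, 10.5, 87.9 and 121 FPKM from T1 to T6, so that in this gene T1 too lay below T2, T3, T5 and T6. *TINAGL1* (gene16678), for a secreted glycoprotein of basement membranes, was at 12.03 FPKM in T4 and 56.7 to 88.9 FPKM elsewhere. The MFAP4-like model (gene21107) was at 7.79 FPKM in T4 and 31.8 to 78.3 FPKM elsewhere. A fibrillin model on chromosome 28 (gene17878), of the protein family that forms microfibrils, was at 54.2, 28.5, 37.7, 10.5, 31.6 and 80.1 FPKM. It is described as fibrillin-2, but the reference table has *FBN2* on chromosome Z, so no symbol was given. Its log2 ratio of 1.08 in T6 over T3 was the highest of the named matrix members.

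**Figure D3:**
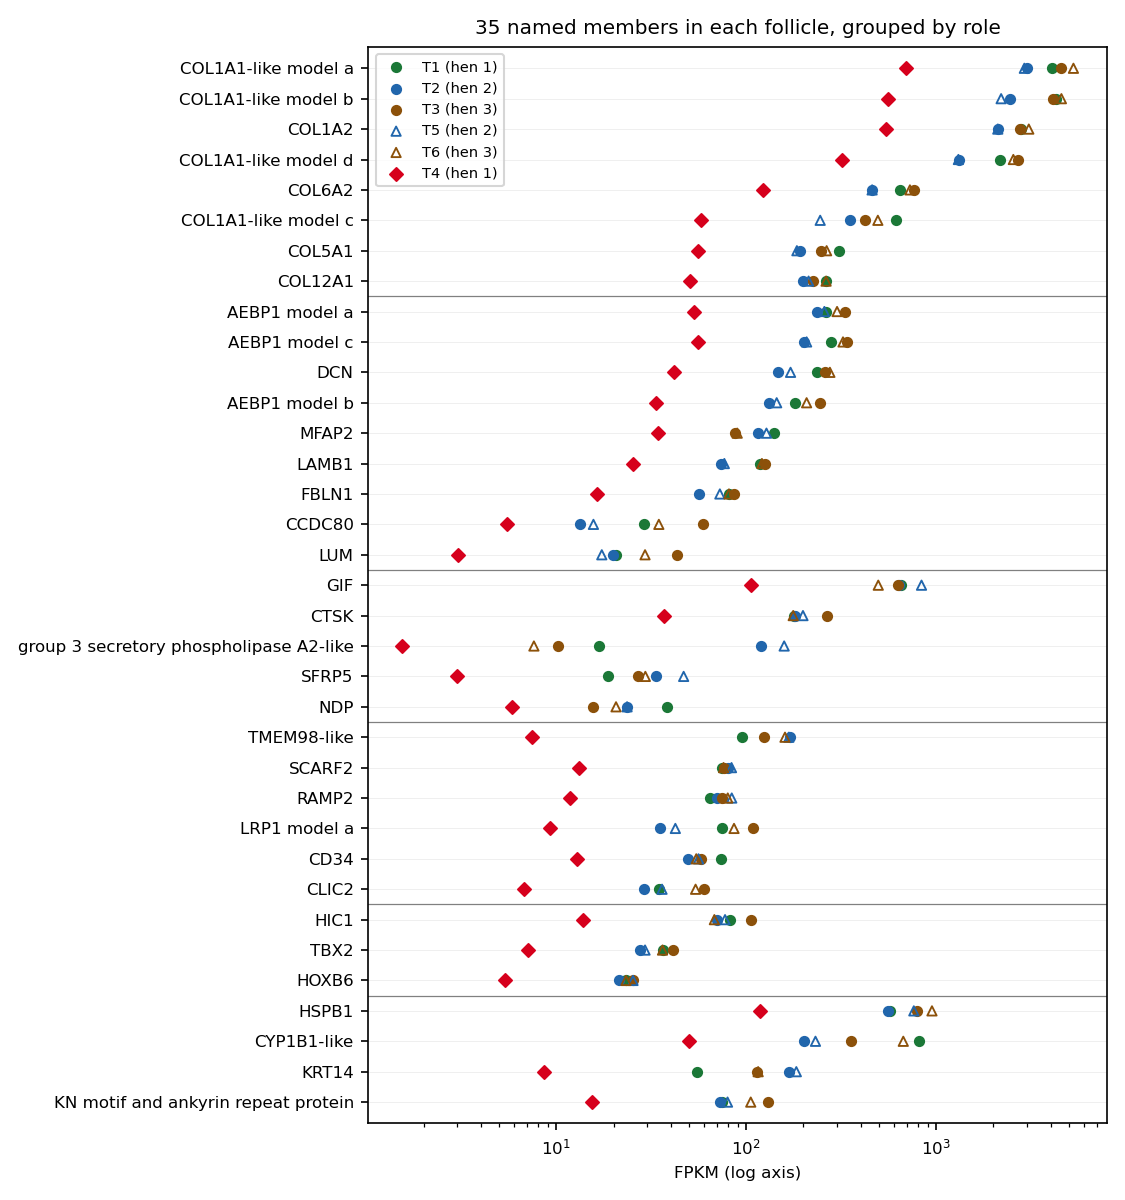
Level of 35 named members (rows, grouped by role) in each of the 6 follicles, in FPKM on a log axis; colours give the hen, and the red diamond is T4. T4 is the leftmost point in every row, while the order of the other 5 follicles changes from row to row.

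Secreted enzymes and signals were 7 members. *CTSK* (gene17166, minus strand of chromosome 25, 1705618 to 1708650), for cathepsin K, a protease that cuts collagen, was at 179, 180, 265, 36.7, 199 and 177 FPKM from T1 to T6. T1, T2 and T6 were nearly equal, and T4 was at 20.5% of T1. The gene described as gastric intrinsic factor, *GIF* (gene7884, plus strand of chromosome 5, 484690 to 489433), a binder of vitamin B12 in mammals, was among the most abundant of all named members, at 656, 638, 629, 106, 837 and 495 FPKM. Its log2 ratios were -2.62, 0.39 and -0.34. Next to it, 1346 bases away, lies an MS4A12-like model (Chicken_newGene_1851), for a membrane protein, at 54.2, 62.5, 75.9, 10.3, 74.9 and 68.9 FPKM with a log2 ratio of -2.34 in hen 1.

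A pair of signal genes of the Wnt pathway were members. *SFRP5* (gene9426, plus strand of chromosome 6, 21837302 to 21839051), for a secreted protein that holds Wnt ligands back, was at 18.8, 33.4, 27.0, 3.002, 46.8 and 29.4 FPKM from T1 to T6. *NDP* (gene1742, plus strand of chromosome 1, 110511636 to 110533212), for norrin, a ligand of a frizzled receptor, was at 38.4, 23.7, 15.5, 5.82, 23.6 and 20.6 FPKM. Both were lowest in T4, but T1 was the second lowest follicle for *SFRP5* and the highest for *NDP*. The gap of T4 to the next lowest follicle was narrower for *NDP*, where that was T3, than for *SFRP5*.

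Among the named members, the widest spread over the other follicles was seen for a group 3 secretory phospholipase A2-like gene (gene15391, minus strand of chromosome 19, 5794727 to 5796729), of an enzyme family that releases fatty acids from phospholipids. T2 and T5, both from hen 2, had 120 and 158 FPKM, whereas T1, T3 and T6 had 16.8, 10.2 and 7.62 FPKM and T4 had 1.54 FPKM. Hen 2 thus lay above every other follicle, and T4 below. The superoxide dismutase gene *SOD3* (gene7533, minus strand of chromosome 4, 73280386 to 73281102), for the form outside cells, was at 8.75, 11.4, 35.7, 0.983, 50.6 and 40.5 FPKM from T1 to T6. T1 and T2 were low beside T3, T5 and T6, and its log2 ratio within hen 2, 2.10, was the highest among the members. The binding protein of fibroblast growth factors *FGFBP3* (gene9365) was at 4.84 FPKM in T4 and 16.0 to 35.0 FPKM elsewhere.

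Receptors and other membrane proteins were 12 members. *RAMP2* (gene17835, plus strand of chromosome 27, 5030150 to 5032072), for a partner protein of the adrenomedullin receptor of vessels, was at 64.2, 69.7, 74.8, 11.8, 83.8 and 79.9 FPKM from T1 to T6. *CD34* (gene17395, minus strand of chromosome 26, 2657850 to 2679187), in mammals a surface protein of endothelial and progenitor cells, was at 73.2, 49.1, 58.1, 12.8, 56.0 and 54.5 FPKM. *CLIC2* (gene6408, minus strand of chromosome 4, 1801701 to 1806730), for a small intracellular chloride channel protein, was at 34.7, 28.8, 59.9, 6.76, 36.0 and 54.1 FPKM. T4 was lowest for all 3, with log2 ratios of -2.39, -2.47 and -2.28 in hen 1, and their ratios in the other hens lay between -0.15 and 0.31.

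*SCARF2* (gene14197, minus strand of chromosome 15, 10096262 to 10105935), for a scavenger receptor, was the steadiest member outside T4, at 74.3, 79.8, 76.3, 83.6 and 75.9 FPKM in T1, T2, T3, T5 and T6, against 13.2 FPKM in T4. *LRRC15* (gene11229), for a membrane protein with leucine-rich repeats, was at 37.9, 64.6, 67.7, 6.64, 74.98 and 56.6 FPKM from T1 to T6, with T1 the second lowest. A pair of unplaced models of *LRP1*, an endocytic receptor, which may share reads, followed the order of the collagens. Model a (gene21001) was at 74.6, 35.1, 109, 9.26, 42.3 and 86.2 FPKM and model b (gene21007) at 51.6, 30.5, 85.5, 9.16, 31.0 and 63.4 FPKM. Hen 2 was low in both.

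Some named membrane proteins rest on few fragments in T4. The TMEM98-like model (Chicken_newGene_5151, 314 bases) was at 95.2, 171, 124, 7.44, 168 and 160 FPKM, with 39.5 estimated fragments in T1 and 3 in T4. Its log2 ratio of -3.59 was the lowest among the membrane proteins, but the counting interval reached from -5.92 to -1.92, and the ratio was -1.62 with normalized counts and a pseudocount to scale. A heat-stable enterotoxin receptor-like model (gene20242) had 6 fragments in T4, with an interval of -4.42 to -1.68. A model of *Ng-CAM* (gene20148), a cell adhesion molecule of neurons, had 11 fragments and an interval of -3.63 to -1.64. A lens fiber membrane intrinsic protein-like model (gene20117) was at 4.81 FPKM in T4 and 18.4 to 30.8 FPKM elsewhere.

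Transcription factors were 3 named members. *HIC1* (gene15368, plus strand of chromosome 19, 5501018 to 5524143), for a zinc finger repressor, was at 82.3, 69.9, 105, 13.7, 77.3 and 67.9 FPKM from T1 to T6. *TBX2* (gene15492, minus strand of chromosome 19, 7630806 to 7642927), for a T-box repressor, was at 36.6, 27.5, 41.2, 7.08, 29.3 and 36.2 FPKM. *HOXB6* (gene17704, plus strand of chromosome 27, 3592208 to 3606196), for a homeobox protein of body position, was at 23.3, 21.3, 25.2, 5.35, 25.3 and 23.3 FPKM. The other 5 follicles lay close together for *HOXB6*, and T4 was the single low value for each of the 3 genes. The log2 ratios in hen 1 were -2.54, -2.29 and -2.03.

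Proteins inside the cell were 9 named members. *HSPB1* (gene15298, minus strand of chromosome 19, 4253511 to 4255947), for a small heat shock protein, was at 568, 559, 791, 118, 762 and 950 FPKM from T1 to T6. *KRT14* (gene17794, minus strand of chromosome 27, 4618773 to 4629572), a keratin of basal epithelial cells in mammals, was at 55.0, 169, 114, 8.57, 183 and 115 FPKM. For *KRT14* both follicles of hen 1 were the lowest of the 6, and the log2 ratio within hen 1 was -2.62. A gene for a protein with a KN motif and ankyrin repeats (gene17906, plus strand of chromosome 28, 877416 to 885739) was at 74.1, 72.4, 129, 15.4, 79.6 and 106 FPKM. *CYGB* (gene14886), for cytoglobin, a globin of fibroblasts in mammals, was at 39.7, 40.9, 25.99, 5.48, 34.9 and 27.0 FPKM, with a counting interval of -3.02 to -2.67 for its ratio.

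The CYP1B1-like model (Chicken_newGene_1196, minus strand of chromosome 3, 31281615 to 31282165), a match to a cytochrome P450, had the lowest log2 ratio of the named members, -4.01. It was at 808, 202, 356, 49.8, 231 and 671 FPKM from T1 to T6, with T1 and T6 high and T4 low. The model is 165 bases long and had 31 fragments in T1 and 2 in T4, so that the counting interval reached from -6.94 to -1.86, and with normalized counts in place of FPKM and a pseudocount to scale its ratio was -1.47. The actin-binding *DBN1* (gene13074), the phosphatase inhibitor *PPP1R1B* (gene17755), a LIMD2-like gene (gene17653) and an AHNAK-like model (Chicken_newGene_5202) had log2 ratios between -2.42 and -2.19 in hen 1 and between -0.51 and 0.47 in the other hens.

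Members without a name included the genes with the highest FPKM. The model gene17027, 145 bases long, was at 33757, 30234, 58183, 7028, 44244 and 116889 FPKM from T1 to T6, but only 51 fragments stood behind its value in T4, since few fragments fit a model of that length. The model gene17870 (376 bases, unplaced) was at 9962, 12362, 9811, 2207, 15002 and 13769 FPKM, with 6009 fragments in T4. Among the long models, gene2100 (chromosome 1, 9093 bases) was at 356, 198, 506, 87.3, 194 and 492 FPKM, in the order seen for the collagens. In contrast, gene3789 (chromosome 2) was at 76.8, 234, 184, 18.1, 342 and 267 FPKM, with both follicles of hen 1 below all others. The gene gene7698 (chromosome 4) was at 125, 44.2, 79.6, 23.1, 95.5 and 357 FPKM, and its log2 ratio of 2.16 in T6 over T3 was the highest among the members.

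T4 was not the lowest follicle in 4 members, none of them named. The gene gene2045 was at 29.1 FPKM in T4 and at 17.9 and 27.5 FPKM in T3 and T6 of hen 3, against 91.1 to 121 FPKM in T1, T2 and T5. Chicken_newGene_4186 had 21.1 FPKM in T4, above the 18.7 FPKM of T6, with 2 fragments in T4. The 147-base model gene20726 was at 120 FPKM in T1 from 1 fragment and listed at 0 in the other follicles. The 150-base model gene16310 had 122 FPKM in T1 but 28.1 FPKM in T4, from 1.3 and 0.3 estimated fragments, and listed at 0 in hens 2 and 3. These last models met the limits of the rule on about 1 fragment, at which a difference is not detectable.

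Counting error was small for most other members. In T4, 97 of 124 members had 100 or more estimated fragments and 8 had under 10, of which 5 were models under 300 bases. The median member had 306.5 fragments in T4, against 1113 over the abundant genes. In T1 these medians were 1718 and 1180. The counting interval of the ratio of normalized counts lay wholly below -1 in 120 members, while it reached above -2 in 61. The members were chosen for a low ratio of T4 over T1 in these same libraries, so these numbers follow in part from the choice. The intervals describe how many fragments stand behind each ratio and are no support for a difference. The ratios of T4 over T1 from FPKM and from normalized counts differed by over 0.2 in 15 of 123 members. These intervals cover counting error within a library only, not the difference between follicles.

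**Figure D4:**
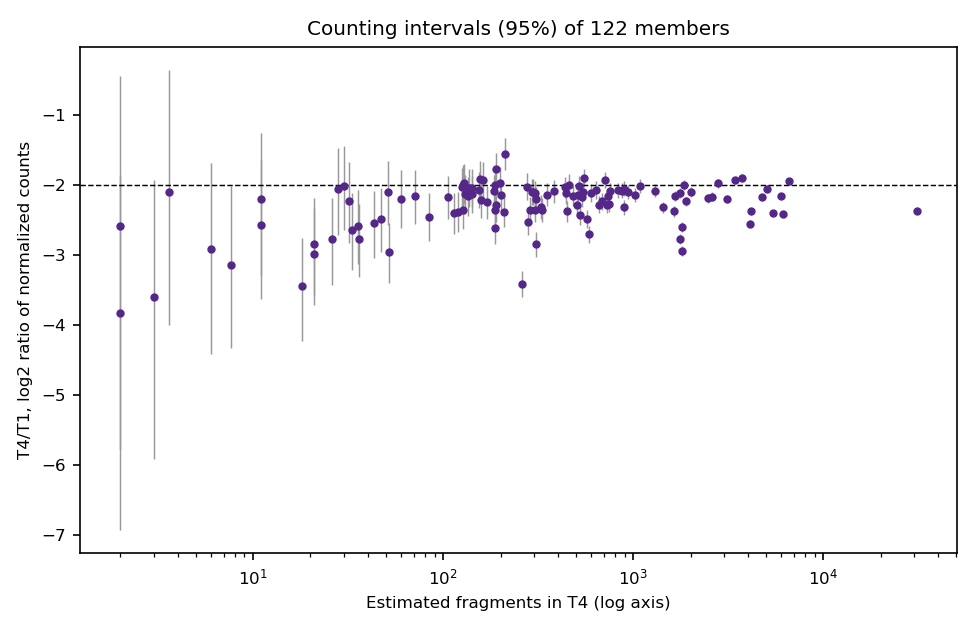
Log2 ratio of normalized counts of T4 over T1 (vertical axis) against the estimated fragments in T4 (log axis) for the 122 members with at least 1 fragment in T4; bars are exact binomial intervals at 95% and the dashed line is the limit of -2. The intervals are wide at the left, where members have under 10 fragments, and narrow for the abundant collagens at the right.

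The rule set no limit on the difference between hens 2 and 3. The values of T2, T3, T5 and T6 did enter it, through the mean level and through the ratios within these hens. The shares of the members given here are therefore not independent of the rule. The members were lower in hen 2, the hen of T2 and T5, than in hen 3, the hen of T3 and T6. The median log2 difference of the mean of T2 and T5 from the mean of T3 and T6 was -0.44 over the members and -0.01 over the abundant genes. Both follicles of hen 2 lay below both of hen 3 in 75 members (60.5%), against 25% of the abundant genes, and above both in 16 members (12.9%), against 19.2%. A difference of -1 or lower was seen for 19 members (15.3%), against 2.35% of the abundant genes. Each hen is 1 animal, so this describes these 4 follicles and no test was run.

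No test of a difference between role groups was run. Over the abundant genes the median log2 difference of hen 2 from hen 3 was -0.01, so that about as many lay below 0 as above. A count near an even split is therefore no trait of a group. Models that may belong to the same gene, the COL1A1-like ones and those of *AEBP1* and *LRP1*, were counted singly. The counts are thus of models and not of separate genes. The 8 collagen models were lower in hen 2, with log2 differences from -0.998 to -0.24. The matrix proteins had a median of -0.69, from -1.61 for *CCDC80* to 0.97 for the MFAP4-like model, and 11 of 13 were lower in hen 2. The secreted enzymes and signals had a median of 0.39, from -0.71 for *FGFBP3* and -0.64 for *SOD3* to 3.89 for the phospholipase A2-like gene, and 3 of 7 were lower in hen 2. That phospholipase A2-like gene met the limit on the mean through hen 2 alone. The receptors and membrane proteins had a median of -0.05 and 7 of 12 lower in hen 2, with *SCARF2* at 0.10, *RAMP2* at -0.02 and the *LRP1* models at -1.32 and -1.25. The proteins inside the cell had a median of 0.05 and 4 of 9 lower in hen 2, and all 3 transcription factors were lower there. Members that were alike in T4 against T1 thus ranked the remaining 4 follicles differently.

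**Figure D5:**
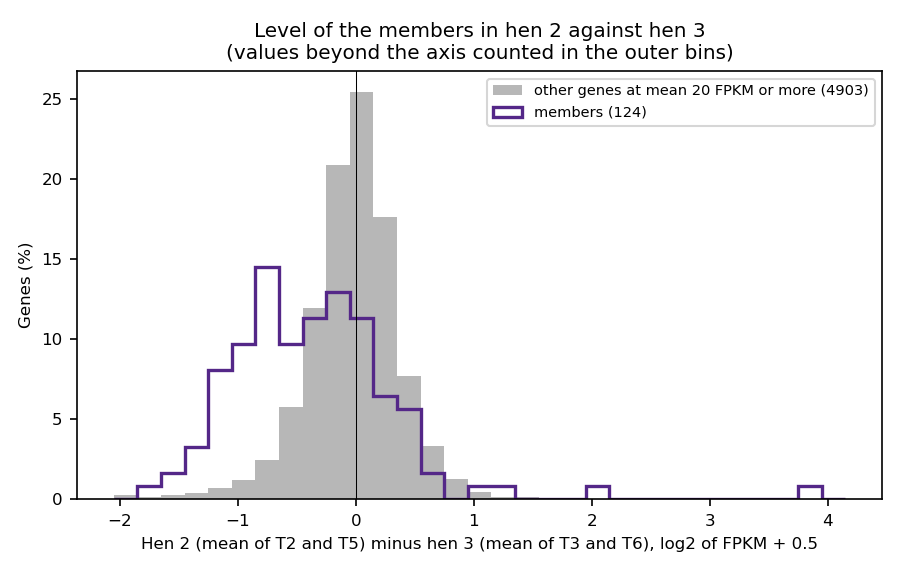
Distribution of the log2 difference between hen 2 (mean of T2 and T5) and hen 3 (mean of T3 and T6) over the 124 members and the 4903 other abundant genes, in percent of genes. The members spread to the left of 0, with a median of -0.44 against -0.01 over all abundant genes.

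Unplaced sequences held 27 members (21.8%), against 13.1% of the abundant genes, and 11 members (8.87%) were gene models that the authors had added, against 5.15%. Transcript models under 300 bases were 8 members (6.45%), against 2.33%. The median transcript length was 2096 bases in members and 2400 bases in the abundant genes. Chromosome 1 held 15 members of its 507 abundant genes (2.96%), chromosome 27 held 6 of 97 (6.19%) and chromosome 14 held 0 of 139. Over all sequences it was 124 of 5027. These chromosomes were picked as examples, and an uneven spread over chromosomes was not tested. Apart from the pairs of *DCN* with *LUM*, *GIF* with the MS4A12-like model and the *AEBP1* models b and c, 1 further pair of members lay within 50 kb, namely gene16310 and gene16313 on chromosome 21. In all, 8 members (6.45%) had another member that near, against 3.78% of the abundant genes. These 8 include the *AEBP1* models b and c, which may belong to the same gene. They also include gene16310, with 1.3 estimated fragments in T1 and 0.3 in T4. The higher share is therefore not read as a trait of the members.

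Known matrix genes that are no members were checked through lists of gene names. Names could be used here for 261 genes that the study had called lower in T4, those with the largest falls by its own fold changes, and for all 561 that it had called higher. Genes with a smaller fall or without a call carry no name. The numbers matched and the split into lower and higher in hen 1 therefore come from this uneven choice. The counts of the other hens were not chosen by the names, but under the rule no member could be lower there by 2-fold or more. Among the abundant genes, 9.13% were lower by 2-fold or more in T4 than in T1, 0.915% in T5 than in T2 and 1.11% in T6 than in T3, and 4.87%, 0.855% and 2.73% were higher by as much. Many genes of the lists lay below a mean of 20 FPKM, which these shares do not cover. The shares are therefore no like background for such genes. Of 19 fibrillar and associated collagens, 8 were matched, 4 of them members: 8 were lower by 2-fold or more in T4 than in T1, and 0 in T5 or in T6. Among the matched genes that are no members, *COL3A1*, *COL6A1* and *COL6A3* met every numeric limit of the rule and were left out only by name. The other, *COL24A1*, lay far below the limit on the mean, with a highest value of 3.12 FPKM, in T1. The counts of this list are therefore no separate check on the members. Of 13 small leucine-rich proteoglycans, 4 were matched (2 members), with 4 lower in T4, 0 in T5 and 1 in T6. Of 19 elastic fibre and microfibril genes, 4 were matched (2 members), with 4 lower in T4 and 0 in the other hens. *LAMB1* was the only match among 15 basement membrane genes. Of 20 matricellular and adhesive protein genes, 6 were matched (1 member), with 4 lower and 1 higher in T4, 1 higher in T5 and 1 lower in T6. Of 29 crosslinking enzyme and protease genes 7 were matched (1 member), with 6 lower and 1 higher in T4 and 1 higher in T6.

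The same limits on names and on level hold for the lists of signals and transcription factors. Of 32 mesenchymal transcription factors 7 were matched (2 members), and all 7 were lower by 2-fold or more in T4 and 1 in T6. Of 29 HOX genes 4 were matched (1 member), with 4 lower in T4 and 1 in T6. Of 32 genes of Wnt signaling 6 were matched (2 members), with 3 lower and 3 higher in T4 and 2 higher in T6, where the number lower counts only the largest falls. Of 14 genes of hedgehog signaling 4 were matched (0 members), with 2 lower and 1 higher in T4 and 1 higher in T6. Of 21 growth factor and receptor genes of mesenchyme 5 were matched, with 5 lower in T4, 1 higher in T5 and 1 lower in T6, and of 14 chemokine and cytokine genes 4 were matched and 4 lower in T4, with no member in either list.

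Some named markers of cell types of the follicle wall were low in T4 as well. They carry a name only because the study had called them lower or higher in T4. Their counts and sums in hen 1 thus follow from that choice, and the unmatched genes of each list were not seen. Of 32 endothelial genes 8 were matched (3 members), with 7 lower by 2-fold or more in T4 and 0 in T5 or T6. Their summed level was 42.5 FPKM in T4 and 213 to 288 FPKM in the other follicles. Of 21 nerve and Schwann cell genes 5 were matched (0 members), with 4 lower and 1 higher in T4, and the sum was 17.5 FPKM in T4 and 43.5 to 52.6 FPKM elsewhere. Of 33 leukocyte genes 7 were matched (0 members), with 7 lower in T4 and 3 in T6, and the sum was 5.08 FPKM in T4, 27.8 in T1, 83.9 in T2, 435 in T3, 123 in T5 and 111 in T6. *IGJ*, the joining chain of secreted antibodies, made up 77.5% of that level, and without it the remaining 6 genes summed to 1.996 FPKM in T4 and to 14.5 to 88.3 FPKM elsewhere.

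The granulosa genes that carry a name were higher in T4. The study had called each of them higher there, so their direction in hen 1 was set by the choice of names. Because the list was made with earlier results of these data known, its counts in the other hens are not independent of them either. Of 26 granulosa genes 10 were matched, *FSHR* and *ZP3* among them, and 0 were members. The rest of the list was not matched, although names could be used for all 561 genes called higher. The matched genes therefore do not stand for the whole list. All 10 were higher by 2-fold or more in T4, 4 in T5 and 6 in T6. A single gene was lower, in T6. Their summed level was 14617 FPKM in T4, between 2543 and 3167 FPKM in T1 to T3, and 6039 and 6006 FPKM in T5 and T6. *ZP3*, a protein of the egg envelope, made up 76.9% of this level over all follicles. Without *ZP3* the remaining 9 genes summed to 3665 FPKM in T4, to 636, 621 and 538 FPKM in the follicles T1, T2 and T3, and to 832 FPKM for T5 and 1789 FPKM for T6. The matching found no gene for smooth muscle and pericytes, red blood cells, steroidogenic theca cells and the oocyte, so these lists are not analysed here. It missed *DES*, of the smooth muscle list, and *SRGN*, of the leukocyte list, although both are named elsewhere in this text as lower in T4 than in T1. The counts of the lists leave them out. The part of the makeup of the follicles in the values of the members was not tested.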

How the data were processed

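The authors enriched poly(A) RNA of each follicle, sequenced it on an Illumina instrument and mapped the reads to a chicken assembly; the submitters' processing notes list Bowtie 0.12.2 and Cufflinks. The sources name a chicken and a mouse assembly, so the build of the deposited positions is not given without conflict. The authors deposited FPKM values per gene, and beside them a normalized count, which is a signal that the authors scaled by 1 factor per library. Of its low values, 89.0% to 89.7% per library were whole multiples of 1 step within 0.02, and values divided by that step are the estimated fragments. Count models were therefore not fitted. The table holds 1 repeated header line and 1 column of values that names no sample and was not used. Fold changes and false discovery rates of the study's supplementary lists were not used; only their annotations gave names. A sequence was given the chromosome that 80% of its named genes have in the reference table (GRCg7b).

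The members and the 20 gene lists were chosen with earlier results of these data known. Values in all follicles are given for the 5 named members with the highest mean and the 5 with the lowest ratio, and for up to 4 of each list and role group, 35 in all. Further members with values were chosen after their values were seen. The planned search of promoters and proteins was not run. The working of the rule was checked on simulated data with 200 planted genes. These data held counting noise but no variation between hens or follicles apart from the falls planted in T4. The check is therefore no support for the members. Python 3.11.15, numpy, pandas, scipy and matplotlib were used.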

Additional observations from a re-analysis of the deposited data

How the results depend on the processing

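The number of members was 135 with a pseudocount of 0.1 and 108 with 1, 123 with a median-of-ratios scaling and 89 with normalized counts in place of FPKM, of which 84 were among the 124. It was 263 with no limit on the mean level and 81 with a mean of 50 FPKM or more. Without the limit on T5/T2 or on T6/T3 it was 126 to 129. In settings chosen after the data were seen, 116 remained without models under 300 bases, 97 without unplaced models, and 172 genes, 109 of them members, met a limit on T4 against the median of the other 5 follicles in place of T1. The median log2 ratio of the members in hen 1 ran from -2.23 to -2.09 over all settings. The median difference of T4 from the other 5 follicles ran from -2.36 to -2.15 when each of these was left out. The log2 ratio of the 35 named members in hen 1 lay between -4.02 and -1.47 over pseudocounts, scaling and normalized counts. None changed its direction, but such a change was hardly possible for genes chosen at -2 or lower in the same libraries. With normalized counts and a pseudocount to scale the CYP1B1-like model came to -1.47 and the TMEM98-like model to -1.62. Without a pseudocount their ratios of normalized counts were -3.83 and -3.60. Both models rest on few fragments, and the scaled pseudocount is larger than their count in T4. The median-of-ratios scaling moved the median of all abundant genes by -0.01 in hen 1. Depth limits the 8 members with under 10 fragments in T4. A paired test of T4 to T6 against T1 to T3 over the 3 hens was not run, because the members were chosen on these same ratios within hens.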

Other observations

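Of the genes at a mean of 20 FPKM or more and lower by 4-fold or more in T4, 7 were set aside because they were also lower by 2-fold or more in T5 or T6. *POSTN* (gene2397), for periostin, a matrix protein that binds collagen, was at 23.6, 8.68, 63.2, 4.38, 17.4 and 28.9 FPKM in T1 to T6. *SRGN* (gene9185), for serglycin, a proteoglycan of blood cell granules, was at 13.6, 45.4, 70.0, 2.44, 47.3 and 17.3 FPKM. A gene described as an MHC class II alpha chain (gene21034) was at 323, 277, 19.9, 62.9, 44.4 and 1258 FPKM, so that it was lower in T4 and in T5 than in the other follicle of the hen and far higher in T6. The remaining 4 had no usable name. None of these was tested.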
